A study of Rattus norvegicus with 9 samples.

Results

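The mitochondrial respiratory chain is built from proteins of 2 genomes, and the 87 genes described here are its nuclear-encoded components, out of 17465 genes in the deposited table of a study of 9 fetal rat lungs. The genes were chosen by symbol (Nduf genes of the a, b, c, s and v series, Sdha to Sdhd, Uqcr genes, Cyc1, Cox4 to Cox8 genes and Atp5 genes). A mean of at least 1 CPM (the count scaled to a fixed library total) over the 9 libraries was also required. Of 91 genes that matched by symbol, 4 fell short of that level, and these were Cox6a2, Cox8b, Cox8c and Cox6c-ps1. The highest of the 4, Cox6a2, had a mean of 0.0919 CPM, and the lowest gene that was kept, Ndufa10l1, had a mean of 2.91 CPM. The 87 genes comprised 35 of complex I, 7 assembly factors of complex I whose symbols begin with Ndufaf, 4 of complex II, 9 of complex III, 15 of complex IV and 17 of complex V. Ndufa4 and Ndufa4l2 were counted with complex IV, because the NDUFA4 protein is now known as a subunit of that complex. One of the 87, Ndufs6-ps1, is listed by RefSeq as a pseudogene and the other 86 as protein coding. RefSeq holds pseudogenes or copies named after 46 of the 87, and reads of such copies may have been counted with the parent gene. The 13 subunits encoded by mitochondrial DNA were not analysed here.

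All lungs came from Sprague-Dawley fetuses, and RNA was sequenced after removal of ribosomal RNA. The control group held 3 lungs with no treatment. The hypoplastic group held 3 underdeveloped lungs with no treatment, whose hypoplasia the series title ties to oligohydramnios, a lack of amniotic fluid. The treated group held 3 hypoplastic lungs given AFSC-EVs, extracellular vesicles released by amniotic fluid stem cells. The hypoplastic lungs carry the treatment label none, so no vehicle is named for the group that the treated lungs are compared with. The labels used here do not state fetal age, vesicle dose, route, litter or sex. Nothing in the labels says that the lungs of a group came from separate litters, so p-values measure the spread between these samples, which may be partly technical.

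Complexes I and II pass electrons from NADH and succinate to ubiquinone, complex III passes them to cytochrome c, and complex IV passes them to oxygen. Complexes I, III and IV pump protons across the inner mitochondrial membrane, and complex V, the ATP synthase, uses the gradient to make ATP. Complex II is also the succinate dehydrogenase of the citric acid cycle. Many nuclear genes of the chain are known to share promoter motifs bound by the transcription factors NRF1, GABP (an ETS factor, once called NRF2) and YY1. In the lung, mitochondria are abundant in the type II cells that make surfactant, and COX4I2 is an isoform of complex IV subunit 4 known for high levels in this organ.

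Promoter windows from 250 bases before to 50 bases after the gene start were available for 74 of the 87 genes in RefSeq (assembly GRCr8), and 13 had no entry. The windows were searched on both strands for 3 core motifs: GCGCA, any base, then GCGC for NRF1, CCGGAAG for ETS factors and AAGATGGCG for YY1. The NRF1 core was found in 15 windows of the chain (20.3%), against 9.30% of the windows of 10500 tested genes. The ETS core was found in 23 (31.1% against 16.5%) and the YY1 core in 10 (13.5% against 3.39%). At least 1 of the 3 motifs was present in 42 of the 74 windows (56.8%), against 25.8% of all windows, and 6 held 2 or more different motifs. A match is a description of the letters and not a measured binding site. The last 150 bases before the gene start are printed for the 4 genes of the chain with the smallest p in the comparison of hypoplastic with control lungs. They are written 5′ to 3′ on the gene's strand, with the core motifs in capitals.
Ndufa5, chr4:53971236-53971385, minus strand: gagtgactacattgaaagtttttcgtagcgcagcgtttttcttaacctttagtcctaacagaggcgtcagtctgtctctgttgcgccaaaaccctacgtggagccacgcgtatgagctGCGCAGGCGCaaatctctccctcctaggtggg
Ndufaf1, chr3:127104021-127104170, minus strand: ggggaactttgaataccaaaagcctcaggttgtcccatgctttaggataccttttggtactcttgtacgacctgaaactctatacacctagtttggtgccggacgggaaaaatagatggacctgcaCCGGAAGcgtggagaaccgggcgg
Sdha, chr1:30764403-30764552, plus strand: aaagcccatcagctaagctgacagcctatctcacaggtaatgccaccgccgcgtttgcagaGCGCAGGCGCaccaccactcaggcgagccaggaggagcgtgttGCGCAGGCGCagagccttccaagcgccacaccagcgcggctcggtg
Atp5pf, chr11:37375102-37375251, minus strand: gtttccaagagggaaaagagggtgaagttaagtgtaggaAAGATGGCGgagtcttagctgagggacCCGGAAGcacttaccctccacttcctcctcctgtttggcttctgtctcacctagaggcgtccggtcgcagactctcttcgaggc
Ndufa5 held 1 NRF1 core starting 32 bases before the gene start. Sdha held 2 in the stretch shown, starting 89 and 46 bases before the start and another that overlapped the start itself. Ndufaf1 held an ETS core starting 24 bases before the start and another starting 18 bases after it, beyond the stretch shown. Atp5pf held an ETS core starting 84 bases and a YY1 core starting 111 bases before the start. The sequence set therefore spans genes whose hypoplastic lungs lay above the controls (Ndufa5 and Atp5pf) and below them (Sdha and Ndufaf1).

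The libraries held 56922779 to 88243188 estimated counts, of which ribosomal and 7SL RNA took 14.1 to 19.9%. All 12 lung epithelial markers were detected in every library, with a summed level of 3300 to 5618 CPM (here and below, CPM of the TMM-scaled library size) in control, 2652 to 3002 in hypoplastic and 3215 to 3779 in treated lungs. Other cell types also differed between groups or libraries, and their part in the results below was not tested. Of the neutrophil markers, 7 of 8 were tested and all 7 were higher in hypoplastic than in control lungs, with sums of 7.16 to 14.1 CPM in control, 56.3 to 99.2 in hypoplastic and 19.6 to 83.7 in treated lungs. Elane was at 0 in control libraries 2 and 3, and Ltf was at 0 in 3 libraries. The sum of 15 cardiac muscle markers was 294.5 CPM in hypoplastic library 1 and 146.8 CPM in hypoplastic library 2, and 25.8 to 54.2 CPM in the other libraries. Skeletal muscle, brown fat and liver markers summed to at most 17.2, 3.23 and 6.08 CPM in any library, and Elovl3 was at 0 throughout. Markers of erythroid cells summed to 4265 to 13780 CPM in control, 4186 to 8329 in hypoplastic and 4805 to 8316 in treated lungs. Transcripts of cytoplasmic ribosomal proteins summed to 74890 to 83140 CPM in control, 90510 to 103900 in hypoplastic and 78160 to 103900 in treated lungs. In whole-lung RNA, fewer cells of a type and less RNA per cell cannot be told apart.

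Taken over all 87 genes, respiratory chain transcripts varied between lungs of 1 group by more than the groups differed. For each library, the median over the 87 genes of the log2 deviation from the gene's own mean over the 9 libraries was taken. It was -0.02, 0.02 and -0.08 in the 3 control libraries, 0.15, -0.11 and 0.02 in the 3 hypoplastic libraries, and -0.01, 0.15 and -0.11 in the 3 treated libraries. The mean was -0.03 ± 0.05 (SD, n = 3) in control, 0.02 ± 0.13 in hypoplastic and 0.009 ± 0.13 in treated lungs. Hypoplastic library 1 and treated library 2 were high and hypoplastic library 2 and treated library 3 were low, so each of these 2 groups held both a high and a low lung. The same libraries led gene by gene. Hypoplastic library 1 was the highest of its group for 67 of the 87 genes and library 2 the lowest for 66, while treated library 2 was the highest of its group for 65 and library 3 the lowest for 52. Complex V had the widest spread in hypoplastic lungs, with medians of 0.19, -0.20 and 0.04, and complex II in control lungs the narrowest of any complex and group, with 0.08, 0.05 and 0.07. The cardiac markers were high in both hypoplastic library 1, where the chain was high, and hypoplastic library 2, where it was low.

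**Figure D1:**
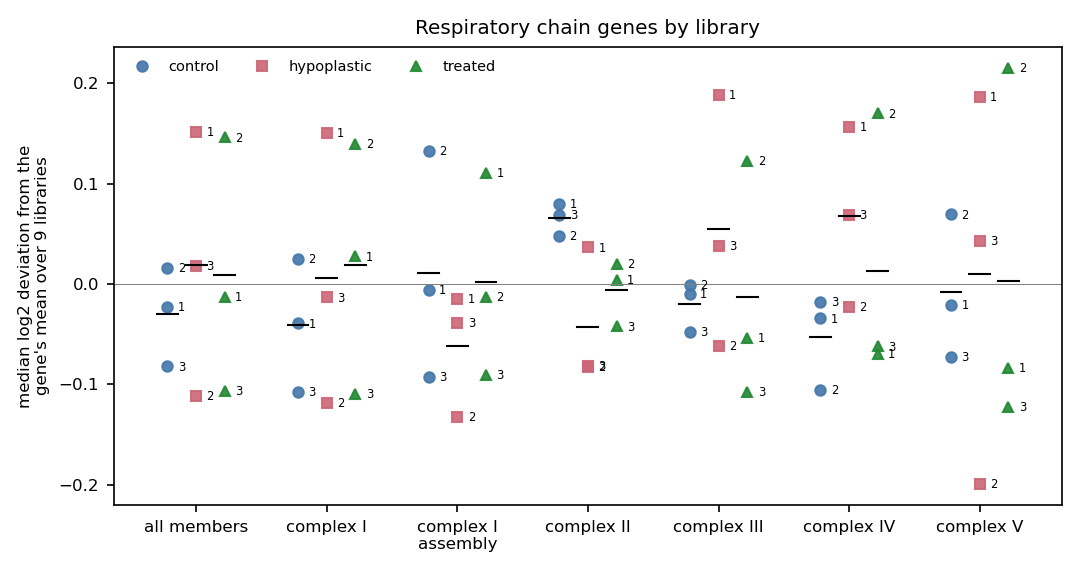
Median log2 deviation of the respiratory chain genes from each gene's mean over 9 libraries (vertical axis), for all 87 members and by complex; each point is a library, the small number is its replicate, and black bars are group means. For all 87 members, hypoplastic library 1 (0.15) and treated library 2 (0.15) sit high and hypoplastic library 2 (-0.11) and treated library 3 (-0.11) low. There the bars of the groups lie closer together than the points of each group. In complexes II, III and IV the control and hypoplastic bars (0.0655 and -0.0425 in complex II) lie farther apart than the control points. In each of them the hypoplastic points spread more widely than that gap (over 0.119, 0.250 and 0.179 in turn).

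Gene by gene, the chain was tightly measured. The within-group coefficient of variation had a median of 10.3% over the 87 genes, against 15.5% over all genes tested and 11.8% over tested genes whose mean level lay between the quartiles of the 87 (23.9 to 102.4 CPM). It was under 10% for 40 of the genes and over 20% for 6. The lowest, 2.03%, belonged to Sdhc, which encodes a membrane anchor of complex II.

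The comparison of hypoplastic with control lungs asks which genes of the chain differ in the underdeveloped lung. By edgeR's quasi-likelihood test with Benjamini-Hochberg adjustment over 12966 genes, none of the 86 genes of the chain that were tested was called at an adjusted p under 0.05, and 1 gene of the whole table was called (0.00771%). At an unadjusted p under 0.05, 7 of the 86 were higher and 2 lower in hypoplastic lungs (10.5%), against 6.67% higher and 5.69% lower (12.4% in all) over all genes. The balance depended on single lungs: it was 3 higher and 3 lower without hypoplastic library 1, and 10 higher and 2 lower without hypoplastic library 2. Leaving out hypoplastic library 3 or control library 3 gave 4 higher and 2 lower, as did library totals. DESeq2, run as an alternative, called 1 of the 86, Ndufa5, and 1.63% of the genes to which it gave an adjusted p. The median log2 fold change of the 86 was 0.042, against 0.013 over all genes, with 57 genes higher and 29 lower (66.3% higher, against 51.9% of all genes). With library totals in place of TMM scaling 44 were higher and the median was 0.0058, against -0.023 over all genes. Without hypoplastic library 1 the median was -0.014, against 0.0006 over all genes, and 39 were higher. For 84 of the 86 the 95% interval of the change lay within 2-fold in either direction (97.7%, against 74.6% of all genes). The values of hypoplastic and control libraries did not overlap for 13 genes that were higher (15.1%, against 7.68% of all genes) and 3 that were lower (3.49%, against 9.05%).

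Complex I showed small changes around 0, with 21 of 34 genes higher and a median of 0.024. The median turned to -0.044, with 15 higher, without hypoplastic library 1, and it was 0.080, with 28 higher, without hypoplastic library 2. Under library totals it turned to -0.0096, with 16 higher, where the median over all genes was -0.023. Ndufa5, an accessory subunit of the arm that binds NADH, had the smallest p of the 86. Its level was 13.5, 14.1 and 12.2 CPM in control lungs, 18.5, 16.6 and 18.04 in hypoplastic lungs and 17.1, 18.8 and 18.9 in treated lungs. Every hypoplastic and every treated lung lay above every control lung. The change from control to hypoplastic was 0.41 (log2, SE 0.12), or 1.33-fold, with an adjusted p of 0.317 by edgeR and 0.0428 by DESeq2. RefSeq lists 4 loci named after Ndufa5, so its counts may include other copies.

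Among the other accessory subunits, Ndufb10 of the membrane arm had 32.6, 30.6 and 32.9 CPM in control, 42.0, 39.4 and 37.9 in hypoplastic and 35.1, 44.4 and 43.0 in treated lungs. The control lungs again lay below all others. Its change in hypoplastic lungs was 0.31 (SE 0.11, edgeR adjusted p 0.350). Ndufb9, also of the membrane arm, changed by 0.28 (SE 0.11), from 18.6, 21.3 and 19.01 CPM to 23.9, 23.0 and 24.9. Ndufa6 changed by 0.27 (SE 0.12), from 36.6 to 40.3 CPM in control lungs to 43.0 to 47.3 in hypoplastic lungs. These were among the 6 complex I genes whose hypoplastic libraries all lay above the controls (17.65% of 34, against 7.68% of all genes). No complex I gene lay the other way (0%, against 9.05% of all genes).

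The 7 core subunits of complex I, which carry the flavin and the iron-sulfur clusters or bind the quinone, did not move as a block, with 4 higher, 3 lower and a median of 0.0026. Ndufs1, the largest subunit of the complex, stood at 106.7, 103.6 and 82.2 CPM in control and 108.3, 72.1 and 78.2 in hypoplastic lungs, a change of -0.18 (SE 0.18) with overlapping groups. Leaving out hypoplastic library 1 or 2 moved its value to -0.38 or -0.064. Ndufv1, the flavin subunit that receives electrons from NADH, differed little, at 70.5 to 75.2 CPM in control and 72.3 to 77.5 in hypoplastic lungs (0.063, SE 0.082).

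The complex I assembly factors, which build the complex and are not part of it, had a median of -0.072, and 6 of 7 were lower. The median was -0.17 without control library 3, -0.13 without hypoplastic library 1 and -0.028 without control library 2. Ndufaf1, a factor of the intermediate that forms the membrane arm, had the largest decrease of the chain. It stood at 9.22, 11.2 and 9.41 CPM in control, 6.999, 7.25 and 7.62 in hypoplastic and 9.56, 8.39 and 8.94 in treated lungs. All hypoplastic lungs lay below all others, with a change of -0.45 (SE 0.14, edgeR adjusted p 0.323) from control. Ndufaf5, which hydroxylates a residue of a core subunit, was the exception, at 8.03 to 9.15 CPM in control and 10.03 to 11.2 in hypoplastic lungs (0.32, SE 0.17, edgeR adjusted p 0.476).

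Complex II had 3 of its 4 subunits lower in hypoplastic lungs, with a median of -0.097, or -0.059 without hypoplastic library 2. Sdha, the flavoprotein that oxidises succinate, stood at 162.4, 155.9 and 145.9 CPM in control, 131.7, 129.8 and 130.4 in hypoplastic and 143.2, 136.3 and 139.3 in treated lungs. The 3 groups did not overlap at all: control was highest, treated intermediate and hypoplastic lowest. The change from control to hypoplastic was -0.24 (SE 0.082, edgeR adjusted p 0.331, unadjusted p 0.0142). Sdhc, at 75.9, 71.8 and 74.1 CPM in control, 68.2, 67.5 and 67.3 in hypoplastic and 68.8, 66.6 and 66.5 in treated lungs, was also lower than control in every hypoplastic and treated lung (-0.13, SE 0.079, edgeR adjusted p 0.527 in hypoplastic lungs). The iron-sulfur subunit Sdhb (0.048, SE 0.12) and the second anchor Sdhd (-0.066, SE 0.13) overlapped between the groups.

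**Figure D2:**
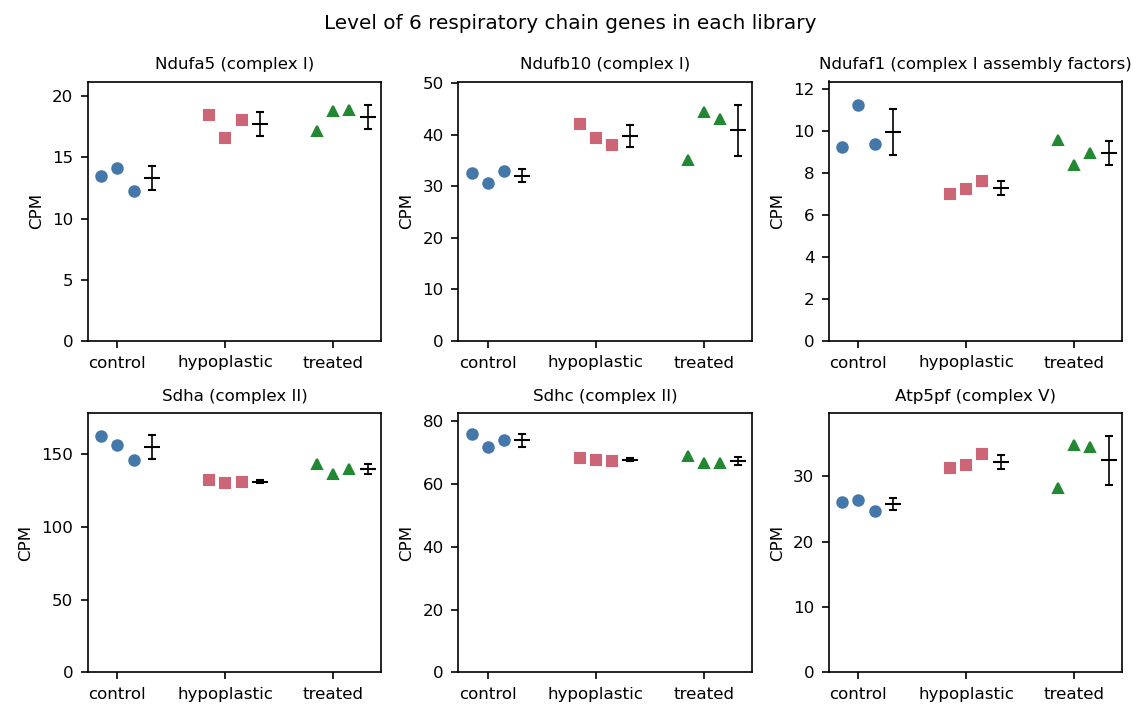
CPM of Ndufa5, Ndufb10, Ndufaf1, Sdha, Sdhc and Atp5pf (vertical axes from 0) in the 3 libraries of each group, with the mean and SD beside them in black. Control lungs lie apart from hypoplastic lungs in all 6 panels, and Sdha runs from 145.9 to 162.4 CPM in control, 129.8 to 131.7 in hypoplastic and 136.3 to 143.2 in treated lungs.

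In complex III, 7 of 9 genes were higher in hypoplastic lungs, with a median of 0.13, which was -0.0023, with 4 of 9 higher, once hypoplastic library 1 was left out. Without control library 1 or 3 it was 0.070 or 0.078. Uqcrq, a small subunit, had 37.1, 37.6 and 33.0 CPM in control, 48.3, 45 and 40.9 in hypoplastic and 53.0, 46.2 and 39.0 in treated lungs, a change of 0.32 (SE 0.13, edgeR adjusted p 0.379) in hypoplastic lungs. Uqcrh, the acidic hinge protein that contacts cytochrome c1, had 129.2, 120.2 and 147.9 CPM in control and 151.8, 155.9 and 159.9 in hypoplastic lungs (0.23, SE 0.11, edgeR adjusted p 0.420). Both showed no overlap between control and hypoplastic lungs. The catalytic subunits were flat, with Cyc1 (cytochrome c1) at 0.0023 (SE 0.097) and the Rieske iron-sulfur protein Uqcrfs1 at 0.030 (SE 0.097). The core protein Uqcrc1 was at -0.085 (SE 0.089).

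Complex IV was the complex in which every gene was on 1 side: all 15 had a higher fitted level in hypoplastic lungs, with a median of 0.15 and a range of 0.0051 to 0.39. With library totals in place of TMM scaling 14 of 15 were higher (median 0.11, against -0.023 over all genes), and without control library 2, 12 of 15. Leaving out hypoplastic library 1 lowered the median to 0.086. None was called. Cox5a, a structural subunit, had 72.0, 60.6 and 68.1 CPM in control, 84.4, 77.3 and 78.0 in hypoplastic and 72.7, 80.4 and 69.6 in treated lungs. Its hypoplastic lungs lay above the controls, with a change of 0.26 (SE 0.10, edgeR adjusted p 0.369). Cox4i1, the ubiquitous form of subunit 4, had 261.7, 253.0 and 287.0 CPM in control and 309.4, 294.2 and 315.2 in hypoplastic lungs (0.20, SE 0.11, edgeR adjusted p 0.489), again without overlap. Cox7a2l, which joins complexes III and IV in supercomplexes, had 236.1, 235.2 and 279.5 CPM in control and 292.7, 269.6 and 303.2 in hypoplastic lungs (0.20, SE 0.13), with overlap. The summed level of the 15 genes was 1400 ± 58.6 CPM (SD, n = 3) in control, 1553 ± 86.0 in hypoplastic and 1491 ± 147.7 in treated lungs. Over the same lungs the cytoplasmic ribosomal protein transcripts lay higher in hypoplastic than in control lungs with no overlap of their sums, and the part of that shift in the complex IV values was not tested.

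Complex V had 12 of 17 genes higher, with a median of 0.014. Under library totals the median was -0.021 with 7 higher, where all genes had a median of -0.023. Without hypoplastic library 1 the complex V median was -0.059 with 5 higher, and without hypoplastic library 2 it was 0.12 with 15 higher. Without control library 2 or hypoplastic library 3 it was 0.063 or 0.0023. Atp5pf, the coupling factor of the peripheral stalk, stood at 26.0, 26.4 and 24.7 CPM in control, 31.3, 31.7 and 33.4 in hypoplastic and 28.1, 34.7 and 34.4 in treated lungs. No control lung reached any of the others, and the change in hypoplastic lungs was 0.32 (SE 0.11, edgeR adjusted p 0.336). The catalytic subunits differed by less than their error, with Atp5f1a at 0.034 (SE 0.14) and Atp5f1b at -0.0071 (SE 0.19). Atp5f1b varied widely within groups, at 2187, 2065 and 2009 CPM in control, 2489, 1691 and 2051 in hypoplastic and 1902, 2350 and 1570 in treated lungs. The ring subunit gene Atp5mc1 had the lowest value of the complex (-0.16, SE 0.19), which ran from -0.32 to -0.051 when hypoplastic library 1 or 2 was left out. Atp5if1, whose protein inhibits the synthase when it runs in reverse, had 26.3, 40.2 and 21.3 CPM in control and 31.9, 31.0 and 40.1 in hypoplastic lungs (0.23, SE 0.23), and leaving out control library 3 or control library 2 moved its value to 0.045 or 0.53.

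The comparison of treated with untreated hypoplastic lungs asks what the vesicles changed. None of the 86 genes was called by edgeR, and no gene of the table was (0%). None of the 86 had an unadjusted p under 0.05 either, against 5.56% of all genes (2% higher and 3.56% lower). DESeq2 gave 1 of the 86 an unadjusted p under 0.05 and called 17 genes of the table (0.14%), none of them in the chain. The median log2 fold change was -0.0032, against -0.010 over all genes, with 42 genes higher and 44 lower (48.8% higher, against 48.1%). With library totals 57 were higher and the median was 0.040, against 0.033 over all genes. The intervals of 84 of the 86 genes lay within 2-fold (97.7%, against 77.4% of all genes). The 2 wider intervals belonged to Cox4i2 and Ndufa4l2. Library values did not overlap for 4 genes that were higher (4.65%, against 5.07% of all genes) and 1 that was lower (1.16%, against 4.74%). Leaving out the high lungs moved the median to -0.076 (treated library 2) and 0.057 (hypoplastic library 1). Leaving out the low ones moved it to 0.050 (treated library 3) and -0.065 (hypoplastic library 2).

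The 4 genes that lay higher in every treated lung than in every hypoplastic lung were 3 assembly factors of complex I (Ndufaf1, Ndufaf3 and Ndufaf8) and Sdha. The comparison shares the hypoplastic libraries with the one above, so its values are given side by side and not as separate evidence. Ndufaf1 had -0.45 in hypoplastic against control, 0.30 (SE 0.14, edgeR adjusted p 0.901) in treated against hypoplastic and -0.15 (SE 0.14) in treated against control lungs. Sdha had -0.24, 0.096 (SE 0.082, edgeR adjusted p 0.940) and -0.15 (SE 0.082) in the same order. Ndufaf3, which works early in assembly, had 10.3, 11.2 and 11.3 CPM in control, 10.98, 10.8 and 10.1 in hypoplastic and 11.6, 11.4 and 12.3 in treated lungs (0.15, SE 0.12, edgeR adjusted p 0.940). Over the 7 assembly factors the median was 0.092, with 6 higher. It was 0.028, with 4 higher, when treated library 1 was left out and 0.15 when treated library 3 was.

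Uqcrh was the gene that lay lower in every treated lung than in every hypoplastic lung, at 122.5, 145.2 and 146.6 CPM after treatment (-0.17, SE 0.11, edgeR adjusted p 0.921). In complex IV, 13 of 15 genes were lower in treated lungs, with a median of -0.046, and 2 were higher. The number higher was 6 with library totals, 9 without treated library 3, 7 without treated library 1 or hypoplastic library 1 and 4 without hypoplastic library 3. With library totals the complex IV median was -0.0098, against 0.033 over all genes. Cox7a2l was at -0.19 (SE 0.13) and Cox6a1, the ubiquitous form of subunit 6A, at 0.098 (SE 0.099). In complex I, Ndufv3, an accessory subunit beside the flavin site, was at 0.21 (SE 0.15). In complex V, Atp5mc2, which encodes the same ring protein as Atp5mc1, was at -0.12 (SE 0.14) and Atp5if1 at 0.12 (SE 0.23). Each of these 5 genes overlapped between the groups, and each moved by over 1.5 times when a single library was left out, Ndufv3 to 0.079 without treated library 3.

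**Figure D3:**
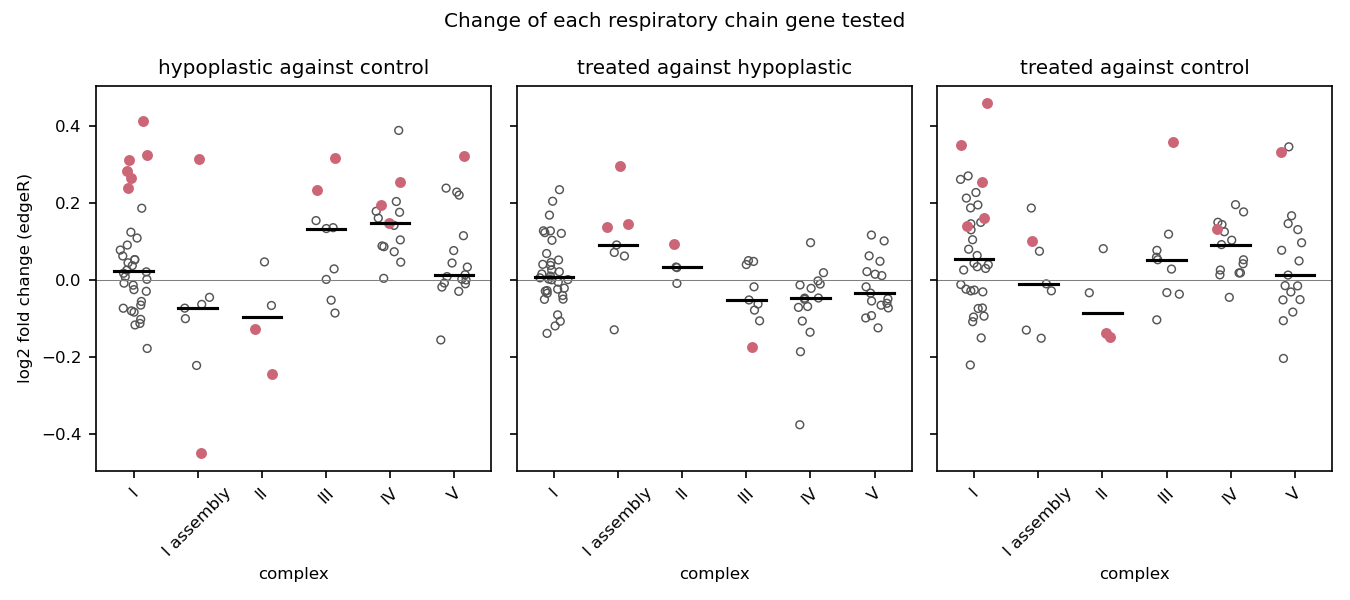
Log2 fold change by edgeR (vertical axis) of the 86 tested genes of the respiratory chain, by complex, in the 3 comparisons; each point is a gene, filled red where no library of one group lay within the range of the other, and bars are medians. Complex IV lies above 0 throughout in hypoplastic against control lungs (15 of 15) and mostly below it in treated against hypoplastic lungs (13 of 15), comparisons that share the hypoplastic libraries.

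The comparison of treated with control lungs asks how far the treated lungs were from normal ones. None of the 86 genes was called by edgeR, nor was any gene of the table (0%), while DESeq2 called 14 genes (0.108%) and none in the chain. At an unadjusted p under 0.05, 6 were higher and none lower (6.98%), against 1.67% higher and 2.5% lower (4.17% in all) over all genes, and without control library 3 the count was 3. The 6 were Ndufa5, Ndufb10, Atp5pf, Uqcrq, Ndufb9 and Ndufa6. The median was 0.047, against 0.0028 over all genes, with 55 higher (64.0%, against 50.6%), and it was -0.034 without treated library 2. The intervals of 85 of the 86 lay within 2-fold (98.8%, against 77.6% of all genes). Library values did not overlap for 9 genes that were higher (10.5%, against 4.37% of all genes) and 2 that were lower, Sdha and Sdhc (2.33%, against 5.02%).

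Ndufa5 had the largest value, 0.46 (SE 0.12, edgeR adjusted p 0.998), beside 0.41 in hypoplastic against control and 0.046 (SE 0.12) in treated against hypoplastic lungs. Ndufb10 had 0.35 (SE 0.11), beside 0.31 and 0.039 (SE 0.11). Atp5pf had 0.33 (SE 0.11), beside 0.32 and 0.012 (SE 0.11), and Uqcrq 0.36 (SE 0.13), beside 0.32 and 0.041 (SE 0.13). For these 4 genes both hypoplastic and treated lungs lay above the shared controls, and the treated and hypoplastic lungs overlapped. Ndufb9 was at 0.26 (SE 0.11) and Ndufa6 at 0.27 (SE 0.12). Sdhc was at -0.14 (SE 0.079). Complex IV had 14 of 15 genes higher, with a median of 0.093, led by Cox7b, a small structural subunit, at 0.20 (SE 0.15). Without treated library 2, 7 of the 15 were higher, the median was -0.028 and Cox7b was at 0.059. The lowest values of their complexes were those of Ndufb8 (-0.22, SE 0.14) in complex I, Uqcrc2 (-0.10, SE 0.12) in complex III and Atp5mc1 (-0.20, SE 0.19) in complex V, and Atp5if1 was at 0.35 (SE 0.23). All 4 overlapped between the groups. Atp5mc1 moved to -0.033 without treated library 3, Uqcrc2 to -0.051 without the same library and Atp5if1 to 0.16 without control library 3.

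Several subunits of complex IV exist as tissue-specific forms encoded by separate genes. Cox4i2 had 12.3, 3.37 and 16.5 CPM in control, 13.3, 11.3 and 11.6 in hypoplastic and 5.75, 12.9 and 14.3 in treated lungs. Its share of the Cox4i1 and Cox4i2 counts together was 4.5, 1.32 and 5.43% in control, 4.11, 3.69 and 3.55% in hypoplastic and 2.22, 3.84 and 4.57% in treated lungs. Ndufa4l2, a paralog of Ndufa4 that is known to be induced by hypoxia, had 12.0, 3.89 and 15.9 CPM in control, 15.6, 15.0 and 11.2 in hypoplastic and 6.60, 12.2 and 13.5 in treated lungs. For both genes control library 2 and treated library 1 stood apart below the other 7 libraries, and the groups overlapped. The fitted changes were 0.16 (SE 0.49), -0.14 (SE 0.49) and 0.027 (SE 0.49) for Cox4i2 and 0.39 (SE 0.44), -0.38 (SE 0.44) and 0.014 (SE 0.44) for Ndufa4l2, in the order of the comparisons above. These standard errors are far above the 0.13 that is the median of the 86 genes. A small change of either gene was therefore not detectable with these libraries.

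The summed level of 11 markers of pericytes and vascular smooth muscle, the mural cells of vessels, was low in the same 2 libraries. It was 746.0, 374.9 and 866.1 CPM in control, 1052, 940.9 and 765.7 in hypoplastic and 495.6, 895.2 and 903.6 in treated lungs, and none of the 11 markers was at 0 in any library. Within the 7 other libraries, 3 relations were computed on the log2 scale. Over these 7, Cox4i2 and Ndufa4l2 had Pearson's r = 0.492 (exact permutation p = 0.268, adjusted 0.402) and Spearman's rho = 0.571 (exact permutation p = 0.200, adjusted 0.3). The marker sum had r = 0.740 with Ndufa4l2 (exact permutation p = 0.0633, adjusted 0.190; rho = 0.607, p = 0.167, adjusted 0.3) and r = 0.187 with Cox4i2 (exact permutation p = 0.697, adjusted 0.697; rho = 0.107, p = 0.840, adjusted 0.840). With the 2 libraries farthest from the median also left out, r was 0.694, 0.634 and 0.110 in the same order. None of the 3 relations passed the adjusted threshold of 0.05 among the 7 libraries.

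**Figure D4:**
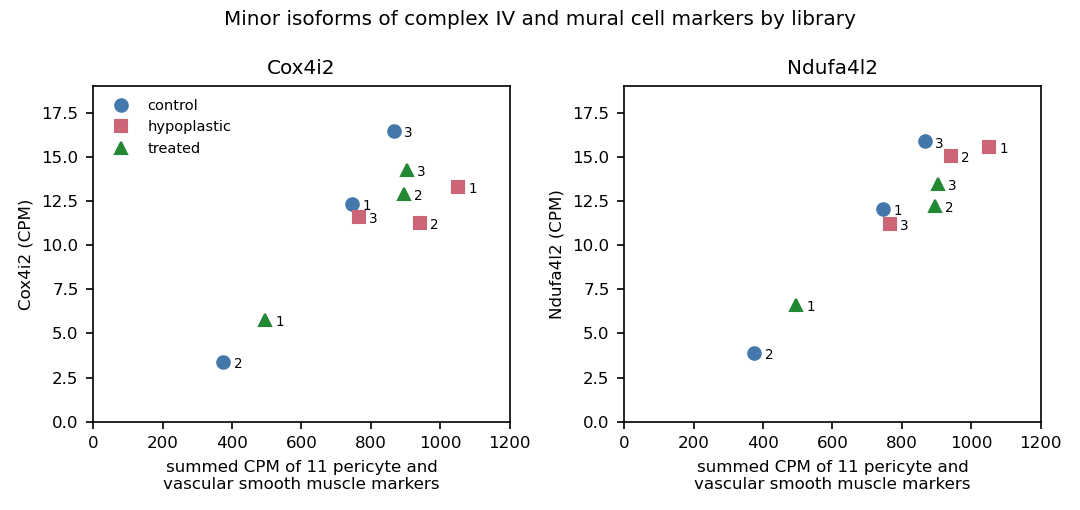
CPM of Cox4i2 and of Ndufa4l2 (vertical axes) against the summed CPM of 11 pericyte and vascular smooth muscle markers (horizontal axes) in the 9 libraries, with the replicate number beside each point. Control library 2 (3.37 and 3.89 CPM) and treated library 1 (5.75 and 6.60 CPM) are low on all 3 measures and the other 7 libraries form a cluster.

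The ratio of each minor form to its main form was compared by an exact two-sided permutation test on the log2 scale. For Cox4i2 to Cox4i1 it was -4.90 ± 1.12 (SD, n = 3) in control, -4.66 ± 0.11 in hypoplastic and -4.82 ± 0.56 in treated lungs. For Ndufa4l2 to Ndufa4 it was -2.67 ± 1.084, -2.21 ± 0.39 and -2.63 ± 0.59. Over 4 ratios and 3 comparisons, the 12 exact permutation p-values were 0.30 or above and the adjusted ones 0.982 or above, where 3 against 3 libraries cannot give less than 0.1. The striated muscle forms were close to absent. Cox6a2 had 1, 5 and 0 counts in control, 8, 32 and 0 in hypoplastic and 1, 3 and 2 in treated lungs, and Cox8b had at most 5 counts in any library. The highest Cox6a2 counts were in hypoplastic libraries 1 and 2, which also had the high cardiac marker sums, and they made up 0.0822% and 0.385% of the Cox6a1 and Cox6a2 counts there. Cox8c, the testis form, was at 0 in all libraries, and Cox7a1 was not analysed here.

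Of the 87 genes, 1 was not tested because its counts fell under the filter on low counts in most libraries. Ndufa10l1, a copy of the complex I gene Ndufa10, had 13.3 CPM in hypoplastic library 1 and 12.0 CPM in treated library 1, and 0.0460 to 0.0881 CPM in the other 7 libraries. Ndufa10 itself ran from 107.5 to 133.5 CPM over the 9 libraries, with 116.6 and 107.5 CPM in those 2. Both lungs are hypoplastic and carry replicate number 1, which does not mark a shared litter or day in the labels. Whether these counts come from the Ndufa10l1 locus or are reads of Ndufa10 assigned to its copy cannot be told from the table.

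The other genes of the pathway gave no call either. Of 39 tested assembly factors of the 5 complexes outside the Ndufaf group, none was called in any comparison, with medians of -0.017, 0.083 and 0.036 in the 3 comparisons in turn. Cox15, which makes the heme a of complex IV, had 68.3, 81.6 and 66.9 CPM in control, 58.8, 50.8 and 66.0 in hypoplastic and 56.1, 60.7 and 53.3 in treated lungs. All control lungs lay above all others, with changes of -0.30 (SE 0.13, edgeR adjusted p 0.379) and -0.35 (SE 0.13, edgeR adjusted p 0.998) from control. Coa4, a complex IV assembly factor, had 3.97 to 4.59 CPM in hypoplastic and 5.10 to 6.40 in treated lungs (0.42, SE 0.17, edgeR adjusted p 0.895).

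Among 23 regulators of mitochondrial biogenesis, none was called. In hypoplastic against control lungs their median was 0.0725, with 14 higher and 9 lower. The 2 with an unadjusted edgeR p under 0.05 in that comparison were both lower (8.70%, against 12.4% of all genes in either direction). In treated against hypoplastic lungs 3 had such a p, 1 higher and 2 lower (13.0%, against 5.56% of all genes). In treated against control lungs 0 had (0%, against 4.17%). Polrmt, the mitochondrial RNA polymerase, had 18.2, 17.3 and 18.3 CPM in control, 13.1, 14.7 and 14.7 in hypoplastic and 16.9, 14.7 and 18.3 in treated lungs (-0.34, SE 0.12, edgeR adjusted p 0.356). Polg, the mitochondrial DNA polymerase, had 45.6, 57.1 and 45.1 CPM in control, 36.0, 42.8 and 41.8 in hypoplastic and 55.3, 49.8 and 45.6 in treated lungs. Hypoplastic lungs lay below both other groups, with -0.29 (SE 0.13, edgeR adjusted p 0.401) from control and 0.32 (SE 0.13, edgeR adjusted p 0.895) after treatment. Gabpa, the DNA-binding subunit of GABP, had 57.1 to 59.0 CPM in treated lungs, below the 64.2 to 69.3 of hypoplastic lungs (-0.21, SE 0.085, edgeR adjusted p 0.895) and the 62.1 to 68.2 of controls. Esrrg, a nuclear receptor, was low throughout, at 0.448 to 0.720 CPM in treated and 1.03 to 1.60 in hypoplastic lungs (-1.03, SE 0.40, edgeR adjusted p 0.895).

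The transcription factor Nrf1 differed little, at 32.8 to 34.2 CPM in control, 35.0 to 35.6 in hypoplastic and 33.2 to 38.4 in treated lungs (0.073, SE 0.096, in hypoplastic against control). Ppargc1a, the coactivator that drives mitochondrial biogenesis, was at -0.11 (SE 0.14), and Tfam, which packages mitochondrial DNA, at 0.16 (SE 0.16). Cycs, the cytochrome c that carries electrons from complex III to IV, was at 0.098 (SE 0.20). In the 18 tested genes of cytochrome c and the citric acid cycle the median was -0.031 in hypoplastic against control lungs, with 7 higher and none called. In the 70 genes of the mitochondrial ribosome it was -0.011, with 34 higher and none called. For treated against hypoplastic lungs the median of these 70 was 0.076, with 49 higher and 21 lower. For treated against control lungs it was 0.091, with 58 higher and 12 lower (82.9% higher, against 50.6% of all genes).

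Hypoplastic library 1 and treated library 2, the lungs high for the chain, were also the highest for the mitochondrial ribosomal protein genes. The library medians of the mitochondrial ribosomal protein genes were -0.0047, 0.0056 and -0.087 in control, 0.12, -0.13 and -0.0037 in hypoplastic and 0.067, 0.14 and -0.031 in treated lungs. The lowest was hypoplastic library 2, as for the chain. The citric acid cycle list had its highest median in hypoplastic library 1 (0.14) and its lowest in treated library 3 (-0.17) and hypoplastic library 2 (-0.16). The cytoplasmic ribosomal protein genes were highest in the same 2 libraries (0.24 and 0.25) but stood at 0.052 in hypoplastic library 2, where the chain was lowest. These lists share libraries, depth and scaling with the chain, so their levels are given as a description.

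**Figure D5:**
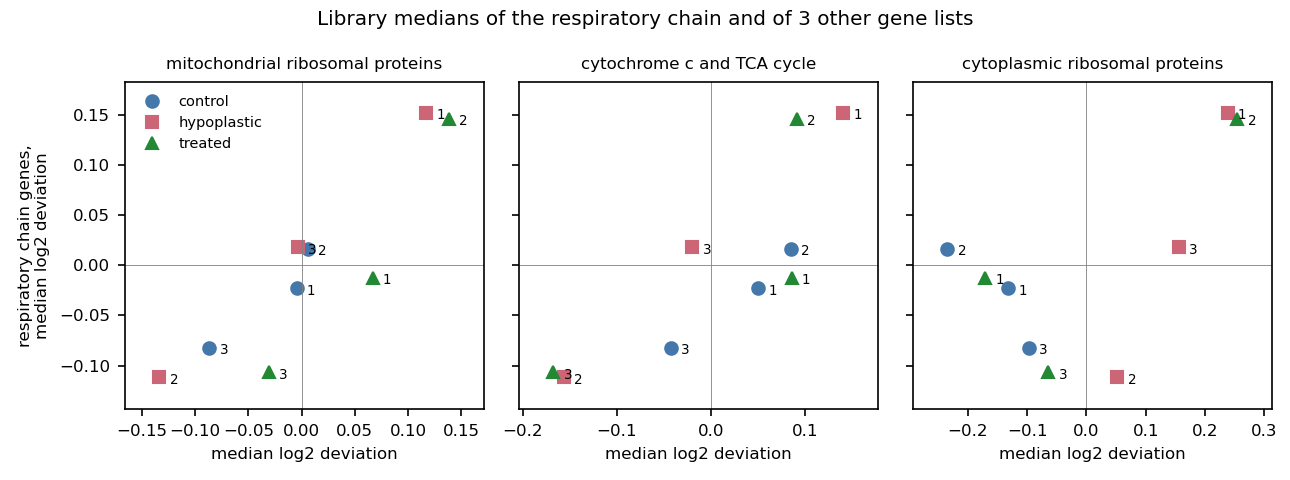
Library median log2 deviation of the respiratory chain genes (vertical axis) against that of mitochondrial ribosomal protein genes, of cytochrome c and citric acid cycle genes, and of cytoplasmic ribosomal protein genes (horizontal axes), with the replicate number beside each point. Hypoplastic library 1 and treated library 2 lie at the upper right of all 3 panels, while hypoplastic library 2 is low in the first 2 panels and near 0.052 in the third.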

How the data were processed

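RNA of 9 fetal rat lungs was measured, 3 in each of 3 groups taken from the titles. The authors deposited 1 table of estimated counts per gene and library, named by NCBI Gene ID, of which 19.5% of the nonzero values were whole as deposited (no tolerance). Per the submitters' processing notes, build rn7 and DESeq2 were named, with no role given, while no source used here gives the aligner, the counter or the origin of the fractions. Symbols came from a RefSeq gene table of GRCr8, used for names only, and 17314 IDs (99.1%) matched. Promoter windows came from RefSeq on GRCr8, and no gene coordinates of the counts are given.

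The estimated counts were rounded and tested with edgeR 4.0.16 (R 4.3.3; TMM, filterByExpr, glmQLFit with legacy=FALSE, glmQLFTest), all 9 libraries in 1 fit with a term per group. The filter kept 12966 genes and set aside 4499. Benjamini-Hochberg adjustment ran over all genes tested, and a gene was called under an adjusted p of 0.05. Standard errors, the change divided by the square root of F, are approximate. Apart from the choice of members, CPM is per TMM-scaled library, and the same 87 genes pass at 1 CPM by either. Isoform ratios used log2 of the ratio of CPM, each plus 0.1, and 4 of 5 planned ratios could be formed. The tests had been planned for counts and were run on simulated whole counts. These had the same coefficient of variation for every gene and larger changes than those of the chain. The simulation therefore does not check the tests on rounded estimates or on small changes. The common biological coefficient of variation was 0.253, and the most similar pair of libraries had a chi-square of 75.5 per degree of freedom, far above sampling noise. Depths cover counting error only.

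The members, the lists and the markers were chosen with earlier results of these data known. In each comparison the rule took the 5 genes of smallest p and the largest and smallest change of each complex. It also took a set whatever its values (core subunits, isoforms, Atp5if1 and Cox7a2l), of which those with the least change stand in counts. For the comparisons of treated lungs, the largest or smallest change of some complexes is not printed. Of the other lists the genes named were up to 3 of smallest p and Ppargc1a, Nrf1, Gabpa, Tfam and Cycs. Genes whose libraries did not overlap, Ndufb9, Ndufa6, Ndufaf8, Sdhc and Ndufa10l1 among them, were named after their values were seen. The values of 1 gene that the rule names are not reported here. Alternatives were RLE, upper-quartile and library-total scaling, a CPM filter, no filter, DESeq2 1.42.0, limma voom (limma 3.58.1), only the 6 libraries compared, a replicate block, removal of 6 ribosomal and 7SL RNA rows, and leaving out each library.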

Additional observations from a re-analysis of the deposited data

How the results depend on the processing

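The number of genes of the chain called was 0 in each comparison under every alternative run, except 1 (Ndufa5, adjusted p 0.0428) by DESeq2 in hypoplastic against control lungs. Over all genes, the calls in that comparison were 1 by edgeR, 207 by DESeq2, 4 with only the 6 libraries compared, 2 with the replicate block, 0 without control replicate 1 or 3, 2 without hypoplastic replicate 1 and 45 without hypoplastic replicate 3, and in treated against hypoplastic lungs 0 by edgeR, 17 by DESeq2, 2 without hypoplastic replicate 1 and 44 without hypoplastic replicate 3. In treated against control lungs they were 0 by edgeR, 14 by DESeq2 and 1 without control replicate 2. The replicate block gave medians of 0.041, -0.0065 and 0.052 for the chain in the 3 comparisons and changed no call in it. Same-numbered libraries had correlations of -0.282 to 0.227, others -0.439 to 0.389, and no library correlated best with its own number. With 3 libraries a group, these values cannot settle whether same-numbered lungs shared a litter or a day. Without 1 library each, the median of the chain ran from -0.014 to 0.097, from -0.076 to 0.057 and from -0.034 to 0.096. Of 60 changes of single genes of the chain that were recomputed without 1 library each, 24 stayed within 1.5 times, 21 moved further without turning and 15 turned direction. Among those that stayed within it were Ndufa5, Ndufb10, Ndufaf1, Sdha, Sdhc, Atp5pf and Uqcrq in hypoplastic against control lungs. Atp5f1b was at 0.000241 with the CPM filter, and Uqcrfs1 at -0.00819, Cyc1 at -0.034 and Atp5f1a at -0.00513 with library totals, and Cyc1 at -1.11e-05 with upper-quartile factors. Without 1 library each, values in hypoplastic against control lungs ran from -0.054 to 0.13 (Sdhb), -0.13 to 0.0078 (Sdhd), -0.030 to 0.082 (Uqcrfs1), -0.036 to 0.042 (Cyc1), -0.26 to 0.61 (Cox4i2), -0.0033 to 0.80 (Ndufa4l2), -0.059 to 0.16 (Atp5f1a) and -0.16 to 0.12 (Atp5f1b). In treated against hypoplastic lungs they ran from -0.37 to 0.17 (Cox4i2), -0.024 to 0.14 (Ndufb10), -0.038 to 0.11 (Atp5pf), -0.071 to 0.15 (Uqcrq) and -0.013 to 0.25 (Atp5if1), and in treated against control lungs from -0.39 to 0.47 (Cox4i2) and -0.38 to 0.42 (Ndufa4l2). The isoform ratios without 1 library each, an alternative chosen after seeing the data, differed by -0.40 to 0.63, -0.38 to 0.16 and -0.56 to 0.48 (Cox4i2 to Cox4i1) and by -0.15 to 0.87 and -0.57 to 0.46 (Ndufa4l2 to Ndufa4, hypoplastic and treated against control). The cause was not tested.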
